A study of Bos taurus with 6 samples.

Results

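The miR-10, miR-99, miR-100 and miR-125 families were examined in small RNA libraries of cultured bovine granulosa cells, the somatic cells that line the ovarian follicle and nourish the oocyte. The members were taken by name: bta-miR-10a, bta-miR-10b, bta-miR-99a-5p, bta-miR-99a-3p, bta-miR-99b, bta-miR-100, bta-miR-125a and bta-miR-125b, or 8 of the 1028 bovine miRNAs listed in each library. No other arm or letter of these miRNA numbers was listed. The cells came from small antral follicles (diameter 3 to 6 mm) of slaughterhouse ovaries and were grown for 24 h. In medium with exosome-depleted serum, control cultures then stayed at 37 °C, while the temperature was raised to 42 °C in the heat-stressed (HS) cultures, for 24 h in both groups. Each group had 3 libraries, described as biological replicates, and the sources do not give the number, breed or age of the cows behind each. The p-values therefore measure the spread between these libraries.

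miRNAs are short RNAs that guide silencing complexes to messenger RNAs, largely through the bases near their 5′ end, the seed. The members belong to old animal families. miR-125 is the vertebrate relative of lin-4, the first miRNA described in the nematode, miR-99 and miR-100 are known for repressing the growth kinase mTOR, and the miR-10 genes sit inside the HOX gene clusters. In granulosa cells these families have been studied for their links to proliferation and survival. miR-99, let-7 and miR-125 genes lie together in several copies of an ancestral cluster, and the members of each family have nearly identical mature sequences. How reads that fit several of them were shared out is not given in the sources used here, so a value within a family is uncertain to that extent.

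Gene positions are not given, as the annotation used here belongs to another assembly than the mapped reads. In RefSeq's annotation of assembly ARS-UCD2.0 all 8 member genes were found, with bta-miR-125b matched to 2 of them. MIR10A overlaps the protein-coding gene HOXB3 and MIR10B overlaps HOXD4, both transcription factor genes of body patterning. MIR125B-2, MIRLET7C and MIR99A are listed next to each other, and the same long noncoding RNA gene overlaps the first and the last of them. MIR99B is followed by MIRLET7E and MIR125A, and MIR125A overlaps SPACA6. MIR125B-1 is followed by MIRLET7A-2 and MIR100. A read of mature bta-miR-125b thus cannot be assigned to either of its genes.

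Values are normalised CPM, read counts brought to a common library size by TMM (trimmed mean of M-values, a scaling that takes most miRNAs as unchanged), as deposited. Whole reads could be recovered from them, and totalled 2076239 to 4590971 per library, lowest in control replicate 1. A count of 3 reads, taken as the floor, corresponded to 0.639 to 1.46 normalised CPM. Levels of different miRNAs are compared as sequenced reads, which are not measured copies per cell. Every member exceeded the floor in every library.

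bta-miR-125a was the most abundant member, ranked 5 among all listed miRNAs by its mean of 37979 normalised CPM. In control replicates 1, 2 and 3 it had 50550, 18952 and 38887 normalised CPM, and in HS replicates 1, 2 and 3 it had 40432, 43146 and 35907. As these are bulk samples, fewer cells of a type and less RNA per cell cannot be told apart. Control replicate 2 was the lowest of the 6 libraries, control replicate 1 the highest, and the HS libraries lay between them. bta-miR-125b, its family mate, ranked 10 and had 33956, 18852 and 25909 in control and 29372, 31045 and 25512 under HS. Here too control replicate 2 was the lowest and control replicate 1 the highest, so the groups overlapped.

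Of the miR-99 and miR-100 members, bta-miR-99b was the most abundant, at rank 27. Its values were 10232, 6211 and 7898 normalised CPM in control and 7287, 7352 and 6136 under HS. The groups overlapped, as the lowest control library was within the HS range. bta-miR-99a-5p, the main arm of the miR-99a hairpin, ranked 41. It had 3727, 3620 and 3756 in control and 3359, 3206 and 2876 under HS, so every HS library lay below every control library. bta-miR-99a-3p, the other arm of the same hairpin, ranked 264. It had 12.2, 12.8 and 12.5 in control and 15.9, 17.1 and 16.4 under HS, so here every HS library lay above every control library. bta-miR-100 ranked 116, below bta-miR-99b and bta-miR-99a-5p and above bta-miR-99a-3p. It had 295.4, 261.3 and 226.2 in control and 367.6, 368.5 and 284.2 under HS. Control replicate 1 was above HS replicate 3, so the groups overlapped.

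The miR-10 members lay far apart in level. bta-miR-10b ranked 34, with 4748, 6553 and 3535 normalised CPM in control and 4438, 5502 and 2972 under HS. It was highest in replicate 2 and lowest in replicate 3 of both groups. bta-miR-10a was at the opposite end, at rank 269, with 12.2, 16.1 and 11.1 in control and 18.2, 15.2 and 8.51 under HS. The control libraries held 25, 74 and 40 of its reads and the HS libraries 55, 56 and 40, and the groups overlapped.

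In the order of the means over 6 libraries, bta-miR-125a was followed by bta-miR-125b, bta-miR-99b, bta-miR-10b, bta-miR-99a-5p, bta-miR-100, bta-miR-99a-3p and bta-miR-10a. The ranges of neighbours lay apart at 3 of the 7 steps. bta-miR-125b was 3.65 times bta-miR-99b, bta-miR-99a-5p was 11.4 times bta-miR-100, and bta-miR-100 was 20.7 times bta-miR-99a-3p. At the other steps the ranges overlapped. bta-miR-125a still exceeded bta-miR-125b in 6 of 6 libraries, whereas bta-miR-99b exceeded bta-miR-10b, and bta-miR-10b exceeded bta-miR-99a-5p, in 5 of 6. bta-miR-99a-3p exceeded bta-miR-10a in only 3 of 6 libraries, so the order of the lowest members was not resolved.

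**Figure D1:**
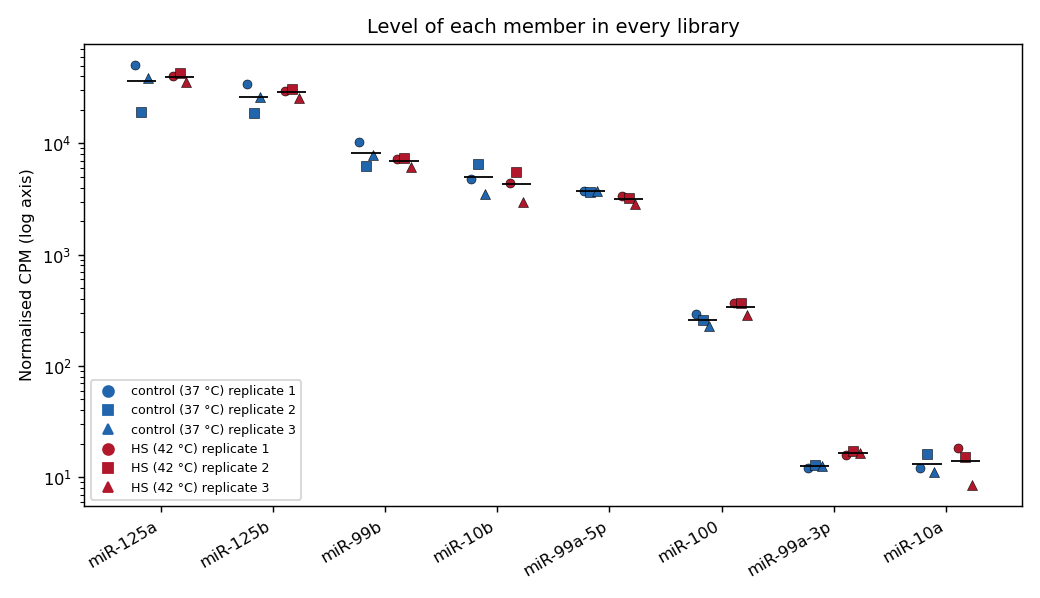
Normalised CPM (log axis) of each member in the 6 libraries, with control in blue, HS in red, a symbol for each replicate number and a line at each group mean. bta-miR-125a has the highest mean, at 37979, bta-miR-99a-3p and bta-miR-10a have means of 14.5 and 13.6, and the groups do not overlap for bta-miR-99a-5p and bta-miR-99a-3p.

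To determine whether HS altered the members, each was tested in limma together with all other miRNAs that passed the filter on low reads, 365 in all. All 8 members passed this filter. None was called at an adjusted p no higher than 0.2 and a log2 fold change (log2FC) of 1 or more in size, a threshold that 3.01% of the tested miRNAs met. None had an adjusted p under 0.05 either (2.19% of the tested miRNAs), nor an unadjusted p under 0.05 (14.5%), and 3 had an unadjusted p under 0.1 (22.5%). The edgeR quasi-likelihood test and the DESeq2 Wald test on the recovered reads called 0 members at either threshold as well. Member fold changes ran from -0.24 to 0.38 on the log2(value + 1) scale, with a median of 0.10 against -0.0015 over all tested miRNAs. Their median size was 0.22, against 0.20 over all tested miRNAs.

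The members with the smallest p-values were the arms of miR-99a and bta-miR-100. bta-miR-99a-5p averaged 3701 ± 71.4 normalised CPM in control and 3147 ± 247 under HS (SD, n = 3 each), a log2FC of -0.24 ± 0.105 (SE, limma adjusted p = 0.374). bta-miR-99a-3p averaged 12.5 ± 0.306 and 16.5 ± 0.608, with a log2FC of 0.37 ± 0.168 (limma adjusted p = 0.388). For bta-miR-100 the means were 261.0 ± 34.6 and 340.1 ± 48.4, and the log2FC was 0.38 ± 0.176 (limma adjusted p = 0.409). The signs of these changes were the same under every scaling tried and without any single library. For the miR-99a arms, whose groups did not overlap, leaving out a library could not turn the sign. The sizes of the changes moved with upper quartile factors, which shift all miRNAs together. Taken over the filtered miRNAs, these factors put bta-miR-99a-5p at -0.04, bta-miR-99a-3p at 0.55 and bta-miR-100 at 0.57, and taken over all miRNAs at -0.42, 0.20 and 0.19. Non-overlapping groups were found for 2 of the 8 members, 1 lower and 1 higher under HS, while 20% of the tested miRNAs did not overlap, 10.4% lower and 9.59% higher.

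The values of bta-miR-99a-3p came from few reads, 25, 59 and 45 in control and 48, 63 and 77 in HS libraries. Their spread between replicates, 2.45% of the mean in control and 3.69% under HS, was smaller than the 11.4% to 20% expected per library from counting alone. With the reads of a group summed, 129 and 188, the ratio of HS to control was 1.31, with a 95% interval of 1.04 to 1.65 (exact, counting error only). For bta-miR-10a the same ratio was 0.977 (0.771 to 1.24), and its limma log2FC was 0.039 ± 0.308 (adjusted p = 0.969). That sign turned in 6 of 21 alternatives: with upper quartile factors taken over all miRNAs, with limma-voom, and without control replicate 1, control replicate 3, HS replicate 1 or HS replicate 2, where the log2FC was -0.0023, -0.063, -0.17 and -0.048.

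For the remaining members the differences were within the spread between replicates. bta-miR-125a averaged 36130 ± 15979 normalised CPM in control and 39828 ± 3657 under HS (log2FC 0.25 ± 0.334, limma adjusted p = 0.839). Its 95% interval ran from -0.54 to 1.04, which spans 0.687 to 2.06 times the control level. The log2FC was 0.12 with the edgeR quasi-likelihood test, 0.15 with the DESeq2 Wald test, and 0.44 or 0.064 with upper quartile factors over the filtered or over all miRNAs. bta-miR-125b had a log2FC of 0.16 ± 0.209 (limma adjusted p = 0.839), which was 0.10 with edgeR, 0.36 with upper quartile factors over the filtered miRNAs and -0.02 with those over all miRNAs. Without control replicate 2, both turned, to -0.16 for bta-miR-125a and -0.06 for bta-miR-125b. bta-miR-99b and bta-miR-10b had log2FC values of -0.20 ± 0.19 and -0.20 ± 0.292 (limma adjusted p = 0.744 and 0.844), and -0.010 and -0.0064 with upper quartile factors over the filtered miRNAs, or -0.39 for each over all miRNAs. That of bta-miR-99b was -0.02 without control replicate 1 and -0.38 without control replicate 2, while bta-miR-10b was at 0.026 without control replicate 2 and at 0.045 without HS replicate 3.

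**Figure D2:**
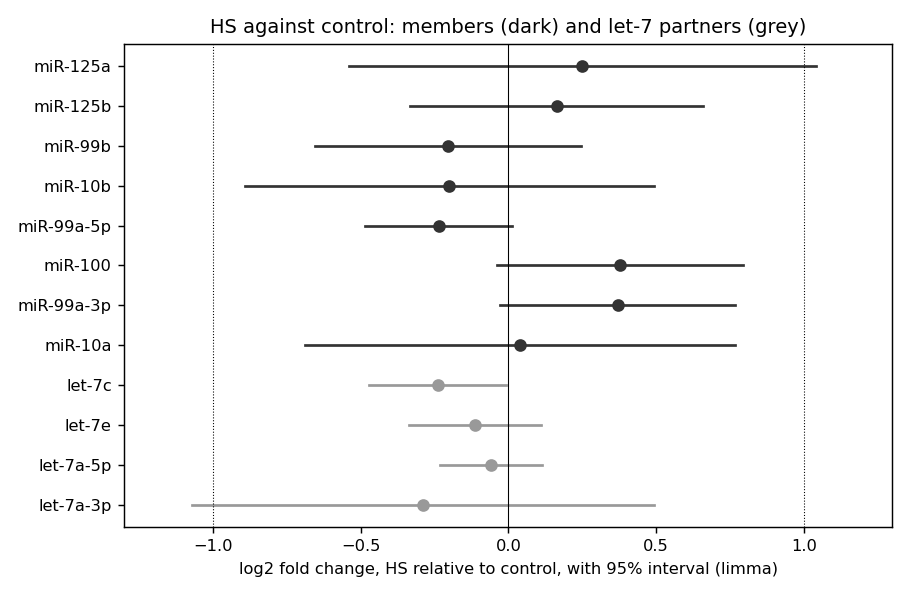
Log2FC (HS relative to control, log2(value + 1) scale) of the 8 members (dark) and 4 let-7 partners (grey), with limma 95% intervals and dotted lines at a log2FC of 1 in size. The intervals of all 8 members include 0, and that of bta-miR-125a is the widest of the members, from -0.54 to 1.04.

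Whether the pool held by a family moved was examined as a share of all recovered reads. The miR-125 members held 8.34%, 3.83% and 6.51% of reads in control replicates 1, 2 and 3 and 6.74%, 7.48% and 6.29% under HS. These shares averaged 6.23% ± 2.27 in control and 6.83% ± 0.604 under HS (SD, n = 3 each), and the groups overlapped (exact two-sided permutation test, p = 0.8). The miR-99 and miR-100 members (bta-miR-99a-5p, bta-miR-99b and bta-miR-100) held 1.21% ± 0.192 and 1.04% ± 0.0781, the miR-10 members 0.497% ± 0.156 and 0.430% ± 0.126, and all 8 members 7.93% ± 2.35 and 8.30% ± 0.802. The exact p-values were 0.3, 0.6 and 0.8, each 0.8 after Benjamini-Hochberg adjustment over the 4 shares, where the smallest possible p is 0.1. In single libraries the 95% Wilson interval reached at most 0.0412 points to either side. Without control replicate 2 the difference for all 8 members turned from 0.373 to -0.835 points, that for miR-125 from 0.608 to -0.591 points and that for miR-10 from -0.0666 to 0.0174 points. The difference for all 8 members also turned without HS replicate 2, to -0.0454 points. That for the miR-99 and miR-100 members was -0.169 points and shrank to -0.0695 without control replicate 1.

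Ratios between members within a library do not depend on how libraries are scaled, and 7 were compared. The reads of bta-miR-99a-5p were 305.3, 282.4 and 299.6 times those of bta-miR-99a-3p in control and 210.9, 187.1 and 175.5 times under HS. The arm ratio was thus lower in every HS library, by 0.63 ± 0.085 on the log2 scale (SE), or 0.645 times the control ratio. This SE rests on the spread between replicates, which for bta-miR-99a-3p was below its counting error. From the summed reads of each group, the ratio under HS was 0.643 times that in control, with a 95% interval of 0.510 to 0.810 (exact, counting error only). bta-miR-99a-5p was 12.6, 13.9 and 16.6 times bta-miR-100 in control and 9.14, 8.70 and 10.1 times under HS. This ratio was likewise lower in every HS library, with a log2 difference of -0.62 ± 0.133. bta-miR-99b was 34.6, 23.8 and 34.9 times bta-miR-100 in control and 19.8, 20.0 and 21.6 times under HS (log2 difference -0.58 ± 0.187), again without overlap.

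Within the miR-99b cluster, bta-miR-99b reached 0.202, 0.328 and 0.203 times the reads of bta-miR-125a in control and 0.180, 0.170 and 0.171 times under HS. All HS libraries were below all control libraries, yet the log2 difference of -0.45 ± 0.232 shrank to -0.22 without control replicate 2. The reads of bta-miR-125a were 1.49, 1.01 and 1.50 times those of bta-miR-125b in control and 1.38, 1.39 and 1.41 times under HS. HS libraries were nearly alike in this ratio, and control replicate 2 stood apart from the other control libraries. Its log2 difference of 0.087 turned to -0.10 without that library. bta-miR-10a to bta-miR-10b and bta-miR-99a-5p to bta-miR-125b overlapped between groups, with log2 differences of 0.24 ± 0.214 and -0.40 ± 0.237. The latter was -0.20 without control replicate 2 and -0.60 without control replicate 1, and the former was 0.056 without HS replicate 1.

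Groups did not overlap for 4 of the 7 ratios, where 21.3% of all 66430 pairs of tested miRNAs did not. For miR-99a-5p/miR-99a-3p this followed from the arms themselves, as the former was lower and the latter higher in every HS library. Each of the 4 had the smallest exact two-sided permutation p the design allows, 0.1, and an adjusted p of 0.175 over the 7. The remaining exact p-values were 0.3, 0.4 and 1. The 7 ratios are not separate measurements, since bta-miR-99a-5p enters 3 of them. bta-miR-100, bta-miR-99b, bta-miR-125a and bta-miR-125b enter 2 each.

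**Figure D3:**
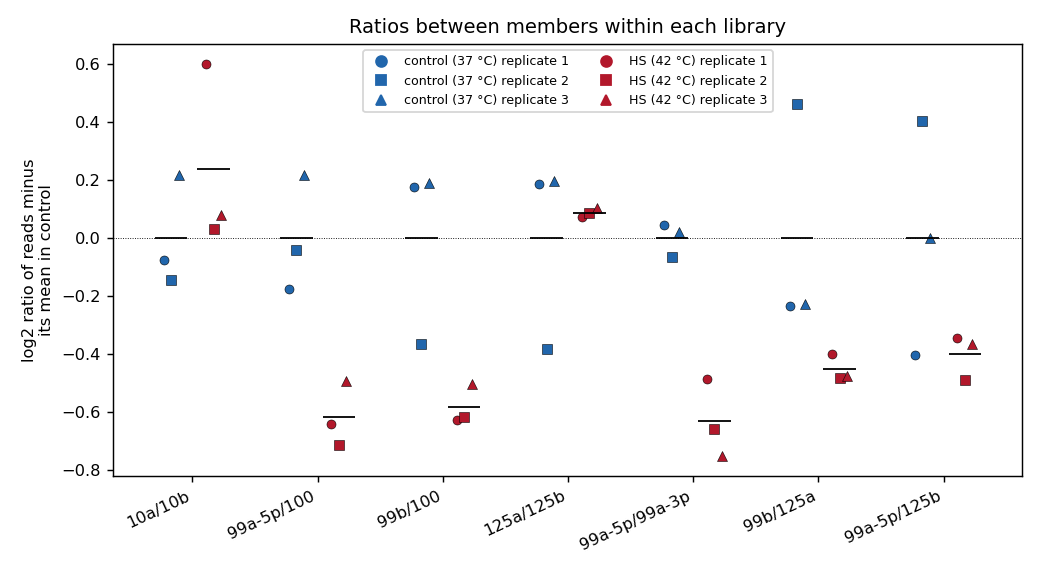
Log2 ratio of reads between members within each library, minus the mean of the 3 control libraries, for 7 pairs, with control in blue, HS in red, a symbol for each replicate number and lines at the group means. For miR-99a-5p/miR-100, miR-99b/miR-100, miR-99a-5p/miR-99a-3p and miR-99b/miR-125a every HS library lies below every control library, and control replicate 2 stands apart for miR-125a/miR-125b.

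The let-7 miRNAs of the same clusters, known for promoting differentiation, were compared with the members beside them. None of the 4 partners had an adjusted p of at most 0.2 in limma (7.12% of the tested miRNAs), and 1, bta-let-7c, had an unadjusted p under 0.05 (14.5% of the tested miRNAs). bta-let-7c, the partner of miR-99a, had 10868, 9352 and 10040 normalised CPM in control and 8330, 8986 and 8297 under HS, without overlap as for 20% of the tested miRNAs (log2FC -0.24 ± 0.0979, limma adjusted p = 0.311). The log2FC of bta-miR-99a-5p was also -0.24, and with upper quartile factors that of bta-let-7c was -0.045 over the filtered and -0.42 over all miRNAs. In whole reads, the ratio of bta-miR-99a-5p to bta-let-7c stayed between 0.343 and 0.403 over the 6 libraries. The ratio of bta-miR-125b, which has a gene beside the same let-7c gene, to bta-let-7c was more variable, from 2.02 to 3.53, and that of bta-miR-99b to bta-let-7e ran from 0.550 to 0.816. bta-miR-125a ranged from 1.68 to 4.03 times bta-let-7e, its cluster partner, with the lowest ratio in control replicate 2. bta-let-7e itself varied little, from 10184 to 12533 normalised CPM, with a log2FC of -0.11 ± 0.0937 (limma adjusted p = 0.692). bta-let-7a-5p and bta-let-7a-3p, from the cluster of miR-100 among other genes, had log2FC values of -0.06 and -0.29 (limma adjusted p = 0.839 and 0.834). The signs of bta-let-7e and bta-let-7a-5p turned with upper quartile factors over the filtered miRNAs and not with those over all miRNAs.

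**Figure D4:**
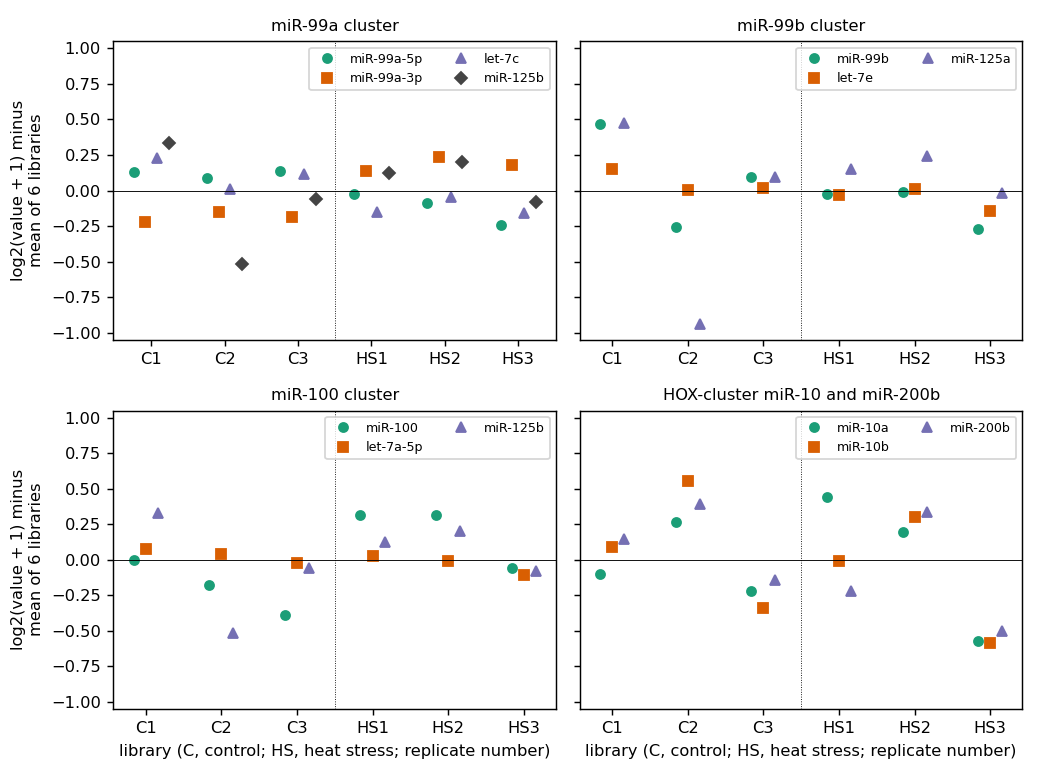
Log2(value + 1) of each miRNA minus its mean over the 6 libraries, by genomic cluster, for control (C) and HS libraries with their replicate numbers. The last panel is not a genomic cluster. It shows the miR-10 members, whose genes overlap different HOX genes, with bta-miR-200b, the closest profile to bta-miR-10b. bta-miR-99a-5p and bta-let-7c lie above bta-miR-99a-3p in every control library and below it in every HS library, bta-miR-125a drops to -0.94 in control replicate 2 while bta-let-7e stays at 0.0021, and bta-miR-10b and bta-miR-200b are both highest in control replicate 2 and lowest in HS replicate 3.

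Members differed widely in their spread between replicates. The SD of log2(value + 1) between control libraries was 0.73 for bta-miR-125a, at percentile 88.8 of the tested miRNAs, against 0.13 between HS libraries. bta-miR-125b and bta-miR-99b had SDs of 0.42 and 0.36 in control and 0.15 under HS for each. bta-miR-99a-5p varied little between control libraries, with an SD of 0.028 at percentile 1.37, and had 0.12 under HS. bta-miR-10b had 0.445 in control and 0.451 under HS. The median member SD was 0.308 in control and 0.147 under HS, beside 0.278 and 0.196 over all tested miRNAs. The SD was nonetheless larger under HS for 5 of the 8 members (35.3% of all tested miRNAs), bta-miR-10a, bta-miR-10b, both miR-99a arms and bta-miR-100. For bta-miR-10a it was 0.26 in control and 0.53 under HS.

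**Figure D5:**
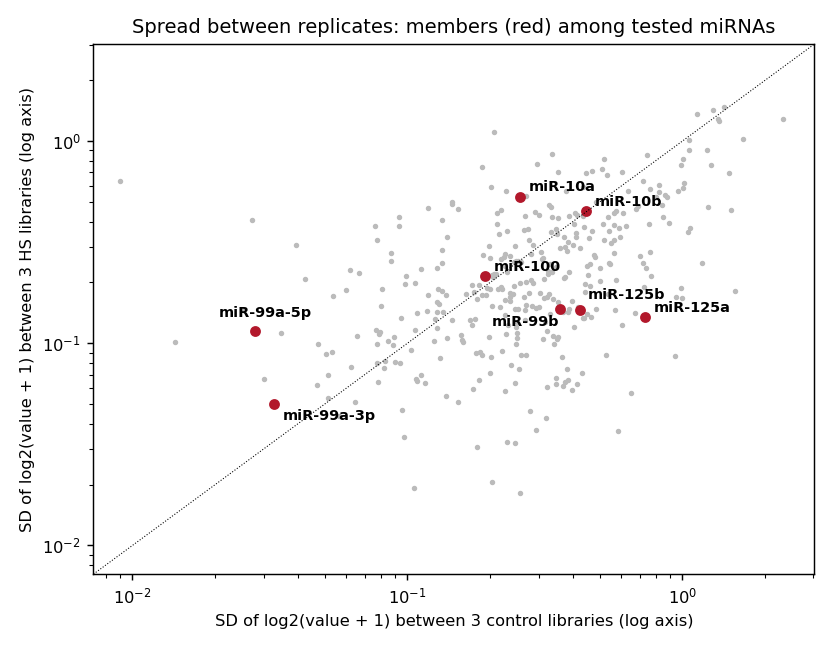
SD of log2(value + 1) between the 3 control libraries (horizontal, log axis) and between the 3 HS libraries (vertical, log axis) for the 365 tested miRNAs, with members in red and a dotted line of equal spread. bta-miR-125a, bta-miR-125b and bta-miR-99b lie below the line, at control SDs of 0.73, 0.42 and 0.36, and the other 5 members lie above it.

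Likeness to other miRNAs was measured as the root mean square difference between profiles of log2(value + 1) over the 6 libraries, each centred on its own mean. The closest to bta-miR-125a was bta-miR-342 (0.127), which had 10683, 5139 and 9963 normalised CPM in control and 10062, 10438 and 9935 under HS and so shared its low value in control replicate 2. bta-miR-125b was closest to bta-miR-92a (0.0747), bta-miR-99b to bta-miR-30d (0.0686), bta-miR-99a-5p to bta-miR-128 (0.0362), bta-miR-99a-3p to bta-miR-455-3p (0.063), bta-miR-100 to bta-miR-222 (0.0967), bta-miR-10a to bta-miR-2483-3p (0.217) and bta-miR-10b to bta-miR-200b (0.143). No member had another member or a let-7 partner as its closest. Among the 364 miRNAs compared, the best-placed member or partner ranked 5 for bta-miR-125a (bta-miR-125b), 6 for bta-miR-99a-5p (bta-let-7e), 7 for bta-miR-10a (bta-miR-10b) and 8 for bta-miR-10b (bta-miR-10a). It ranked 12 for bta-miR-100 (bta-miR-99a-3p), 20 for bta-miR-99a-3p (bta-miR-100), 22 for bta-miR-99b (bta-let-7c) and 27 for bta-miR-125b (bta-miR-99b). With 6 libraries and this many profiles, these rankings are descriptions.

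Markers of other cell types were set beside these values. The 5 epithelial miRNAs, to which bta-miR-200b belongs, summed to 57.1, 86.5 and 60.5 normalised CPM in control and 61.7, 82.7 and 49.0 under HS. Like bta-miR-10b, their sum was highest in replicate 2 of both groups. In control their sum was lowest in replicate 1, whereas bta-miR-10b was lowest in replicate 3. The part of these miRNAs in the values of bta-miR-10b was not tested. Of these, bta-miR-141 and bta-miR-205 were at or below 2.13 normalised CPM in every library. The 6 theca and stroma miRNAs summed to 1327 to 2090 in control and 2012 to 2201 under HS, and the 7 blood cell miRNAs to 730.2 to 895.4 and 676.6 to 799.8, with bta-miR-451 and bta-miR-144, of red cells, at or below 2.65. bta-miR-486, also known from red cells, had 50.8, 29.1 and 12.0 in control and 60.1, 49.2 and 20.0 under HS. The highest of the blood cell miRNAs were bta-miR-142-5p, bta-miR-223 and bta-miR-150. They ran from 247.9 to 428.5, 195.8 to 311.0 and 45.0 to 260.7 normalised CPM over the 6 libraries. Of the 18 miRNAs on these lists 14 passed the filter on low reads, and none of the 14 had an adjusted p of at most 0.2 in limma. The 4 not tested were bta-miR-141, bta-miR-205, bta-miR-451 and bta-miR-144. The groups overlapped for each sum. Among the 14 tested, bta-miR-199a-5p alone had groups without overlap, as 20% of all tested miRNAs did. It had 250.0, 324.4 and 307.6 normalised CPM in control and 326.8, 371.5 and 372.7 under HS (limma adjusted p = 0.463). No miRNA was used as a defining marker of granulosa cells, so the labelled cell type was not checked.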

How the data were processed

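Small RNA was sequenced from 6 cultures of bovine granulosa cells, 3 control and 3 HS. Library input was 100 ng of RNA, adapters carried molecular identifiers, and PCR ran for 16 cycles. Per the submitters' notes and methods, the authors removed adapters (Cutadapt 1.11), merged reads of the same identifier, aligned them (Bowtie2 2.2.2) to assembly UMD3.1, assigned them to miRBase and normalised by TMM in edgeR. The deposited signal is this TMM-normalised CPM. In each library 100% of the values were whole multiples of 1 step (tolerance 0.01 of a read), which gave the recovered reads. Replicates of a group did not hold the same library, as chi-square per degree of freedom was 84.3 to 431.3.

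miRNAs were tested with limma 3.58.1 (trend) in R 4.3.3, taking log2(deposited value + 1), after filterByExpr of edgeR 4.0.16 on the recovered reads, with Benjamini-Hochberg adjustment over all 365 tested. The fit was tested on simulated reads, where it recovered 97.1% of the 2-fold changes among 358 miRNAs for this comparison (adjusted p threshold 0.2). The simulation gave every miRNA the same dispersion and changed 194 of them. In the data the spread differed between miRNAs, with an SD of 0.73 for bta-miR-125a between control libraries. The simulated rate therefore does not carry over to members with such a spread. Shares and ratios were compared by exact two-sided permutation tests of group means (scipy 1.17.1), which cannot go below 0.1. Counting intervals cover counting error only. Alternatives were other scalings, filters, pseudocounts, tests (including DESeq2 1.42.0), the replicate block and leaving out each library.

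The members, marker lists, let-7 partners and named miRNAs (members, partners and the closest profile to each member) were chosen with earlier results of these data known. A comparison of seeds with other bovine miRNAs was planned and not made, as mature sequences were not used here. Vesicle libraries were not analysed here.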

Additional observations from a re-analysis of the deposited data

How the results depend on the processing

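No member was called at either threshold under any of 21 alternatives, 15 with all libraries and 6 with a library left out, and the lowest adjusted p of a member among them was just above 0.2 (bta-miR-99a-5p). Of 168 member fits, 157 kept their direction and their side of 0.2, and 11 changed sign, all of bta-miR-10a, bta-miR-10b, bta-miR-125a or bta-miR-125b. With upper quartile factors the median of all tested miRNAs shifted to 0.18 on the log2 scale, and to -0.18 when taken over every miRNA with a read, a setting chosen after the data were seen. Under the latter bta-miR-10a was at -0.13 and bta-miR-125b at -0.023, both above the shifted median, and 1 partner, bta-let-7c, had an adjusted p of at most 0.2. Under the former bta-let-7e was at 0.080 and bta-let-7a-5p at 0.13, both below the shifted median. Relative to the shifted medians of 0.18 and -0.18, bta-miR-99a-5p was at -0.22 and -0.24, bta-miR-99a-3p at 0.38 and 0.37, and bta-miR-100 at 0.40 and 0.37. With limma-voom bta-miR-10a was at -0.055.

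When a library was left out, log2 fold changes ran from -0.17 to 0.34 for bta-miR-10a, -0.42 to 0.045 for bta-miR-10b, -0.16 to 0.55 for bta-miR-125a, -0.055 to 0.37 for bta-miR-125b and -0.56 to 0.0015 for bta-let-7a-3p. Differences in share ran from -0.59 to 1.66 points for miR-125, -0.137 to 0.0174 for miR-10, -0.262 to -0.0695 for miR-99 and miR-100 and -0.835 to 1.51 for all 8 members, and the log2 ratio of bta-miR-125a to bta-miR-125b from -0.10 to 0.19. The causes were not tested. The 4 ratios without overlap kept their direction in every setting, which neither leaving out a library nor the replicate block could have changed. Over the settings, miR-99a-5p/miR-100 ran from -0.71 to -0.51 and miR-99b/miR-100 from -0.77 to -0.49. miR-99a-5p/miR-99a-3p ran from -0.71 to -0.57 and miR-99b/miR-125a from -0.57 to -0.22.

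The sources do not say what a replicate number stands for. Across miRNAs, the departures from group means had correlations of 0.421, -0.117 and 0.616 for same-numbered libraries, and 4 of 6 libraries correlated best with their own number, so the numbers were not taken as pairs. With the replicate block, 0 members were called and the lowest member adjusted p was 0.258 (bta-miR-100, log2 fold change 0.38), and with sign flips by replicate number the exact p of the 4 ratios was 0.25, the smallest possible. Depth limits bta-miR-10a and bta-miR-99a-3p most, at 25 to 77 reads per library.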
